A study of Mus musculus with 8 samples.

Results

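The aorta of the mouse is wrapped in perivascular fat, and the RNA of a whole aorta therefore carries transcripts of adipocytes beside those of the vessel wall. Here 39 genes of white and brown adipocytes were followed in 4 ApoE-/- and 4 WT aortas. The members were taken by gene symbol from a fixed list, out of 21859 gene rows in the count files, and each of the 39 symbols was found once. They were divided by name into 10 thermogenic members (Ucp1, Cidea, Ppargc1a, Ppara, Dio2, Elovl3, Cpt1b, Fabp3, Plin5 and Slc27a2) and 29 general members. The general class also holds Adrb3 and Acaa2, which serve thermogenesis and fatty acid oxidation.

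All 8 mice were 40 weeks old, male, on the C57BL/6 background and fed a normal chow diet. The ApoE-/- mice lack Apoe, the ligand that clears lipoprotein remnants from blood, and are a model of atherosclerosis that carries the deletion in every cell. The WT mice were of the same sex and age. Each library was made from the total RNA of 1 whole aorta after ribosomal RNA had been removed, and no cells were sorted, so fewer adipocytes in a sample and less of an RNA per adipocyte cannot be told apart.

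White adipocytes store triglyceride in 1 large lipid droplet and secrete hormones such as adiponectin and leptin. Brown adipocytes hold many small droplets and many mitochondria, and burn fatty acids to make heat through uncoupling protein 1. Perivascular fat around the mouse thoracic aorta is known to resemble brown fat, whereas that around the abdominal aorta is more like white fat. The nuclear receptor PPARγ and C/EBPα drive the shared part of the programme, and PGC-1α with PPARα drives the oxidative part.

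The files held 23240995 to 23940156 read pairs assigned to genes per ApoE-/- library and 18375898 to 21664598 per WT library, and pairs assigned to no feature were 50.1 to 54.7% and 56.4 to 58.0% of all pairs, so both differed between genotypes without overlap. Their part in the results was not tested. The lowest count of any member in any library was 19 pairs, for Lep. Levels are given as CPM, gene counts scaled to a common library size with TMM factors, and errors are SD over 4 mice unless stated. Apoe measured 32.3, 14.7, 17.6 and 36.3 CPM in ApoE-/- replicates 1 to 4 and 809, 667, 536 and 857 CPM in WT replicates 1 to 4, so each library matched its genotype label (log2 fold change -4.83, SE 0.37, edgeR adjusted p = 0.0141). ApoE-/- replicate 1 stood apart from the rest of its group. Its correlation with the other ApoE-/- libraries over all genes tested was 0.849 to 0.903, against 0.951 to 0.971 among those 3 and 0.979 to 0.989 among WT libraries. Its summed level of 8 smooth muscle markers was 4974 CPM, against 11102 to 20966 CPM elsewhere. Results that rest on this library are therefore also given without it.

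Both defining markers were present in every aorta. Adipoq, which encodes the hormone adiponectin and is made almost only by adipocytes (chromosome 16, 23146536 to 23158028, plus strand, build GRCm38), measured 509.9, 335, 207 and 871 CPM in ApoE-/- replicates 1 to 4 and 541, 394, 399 and 815 CPM in WT replicates 1 to 4. Ucp1, the uncoupling protein of brown fat (chromosome 8, 83290352 to 83298452, plus strand), measured 1071, 409.9, 209 and 899 CPM in ApoE-/- replicates 1 to 4 and 1682, 596, 754 and 2539.6 CPM in WT replicates 1 to 4. Both genes were lowest in the same library and differed at the top. That lowest library was ApoE-/- replicate 3, whereas ApoE-/- replicate 4 was highest for Adipoq, and WT replicate 4 was highest for Ucp1. The data hold no position within the tissue, so the label perivascular rests on the anatomy of the sample and not on a measurement.

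Per kilobase of annotated exon, Ucp1 had the highest WT mean of the 39 members, at 851 CPM per kb. That mean was carried by WT replicates 1 and 4, at 1682 and 2539.6 CPM against 596 and 754 CPM in replicates 2 and 3. All annotated exons of a gene were joined for its length. For Fabp4 this length, 4489 bases, is the whole gene with its introns, so its value per kb is understated and the ranks depend on the annotation. Pck1 at 842, Scd1 at 726, Car3 at 723 and Fabp4 at 699 CPM per kb came next. Adipoq stood seventh with 389 CPM per kb, and the lowest were Ppargc1a (11.3), Cpt1b (2.59) and Lep (1.76). In ApoE-/- aortas Ucp1 averaged 396 CPM per kb, near Adipoq at 348, while Scd1 averaged 1555. With the SDs between mice shown for each gene below, the order of neighbours in this ranking is not resolved.

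The first question was whether the programme as a whole differed between ApoE-/- and WT aortas. The 39 members together took 3.57, 1.84, 1.46 and 3.91% of gene counts in ApoE-/- replicates 1 to 4 and 2.84, 2.01, 1.89 and 4.20% in WT replicates 1 to 4. The means were 2.70 ± 1.22% and 2.74 ± 1.06% (n = 4 each), and the genotypes overlapped over nearly their whole range. Without the 6 genes of fatty acid synthesis, Scd1 and Fasn among them, the shares were 1.86, 1.08, 0.759 and 2.32% in the ApoE-/- mice and 2.42, 1.64, 1.57 and 2.89% in the WT mice, with a mean difference (ApoE-/- minus WT) of -0.63 percentage points, and they overlapped as well. For all 39 together the highest share among the 8 aortas was 2.87 times the lowest.

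None of the 39 members passed the test between genotypes (edgeR quasi-likelihood, Benjamini-Hochberg adjusted over 15077 genes, threshold 0.05), where 70 genes or 0.464% of all those tested did. All 39 had passed the filter on low counts. The lowest adjusted p among them was 0.178, for Aqp7, and limma-voom called none of them either. At an unadjusted p under 0.05 there were 3 members, Aqp7, Ppargc1a and Fasn, that is 7.69% of the members against 11.4% of all genes tested. By the sign of the fold change 32 of 39 members were lower in ApoE-/- and 7 were higher, whereas 42.0% of all genes tested were lower. The median log2 fold change was -0.26 over the members and 0.05 over all genes, and without ApoE-/- replicate 1 it was -0.49 and 0.0046. The count of signs depended on single libraries. It was 21 of 39 without ApoE-/- replicate 3, 23 without WT replicate 4 and 34 without ApoE-/- replicate 1.

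**Figure D1:**
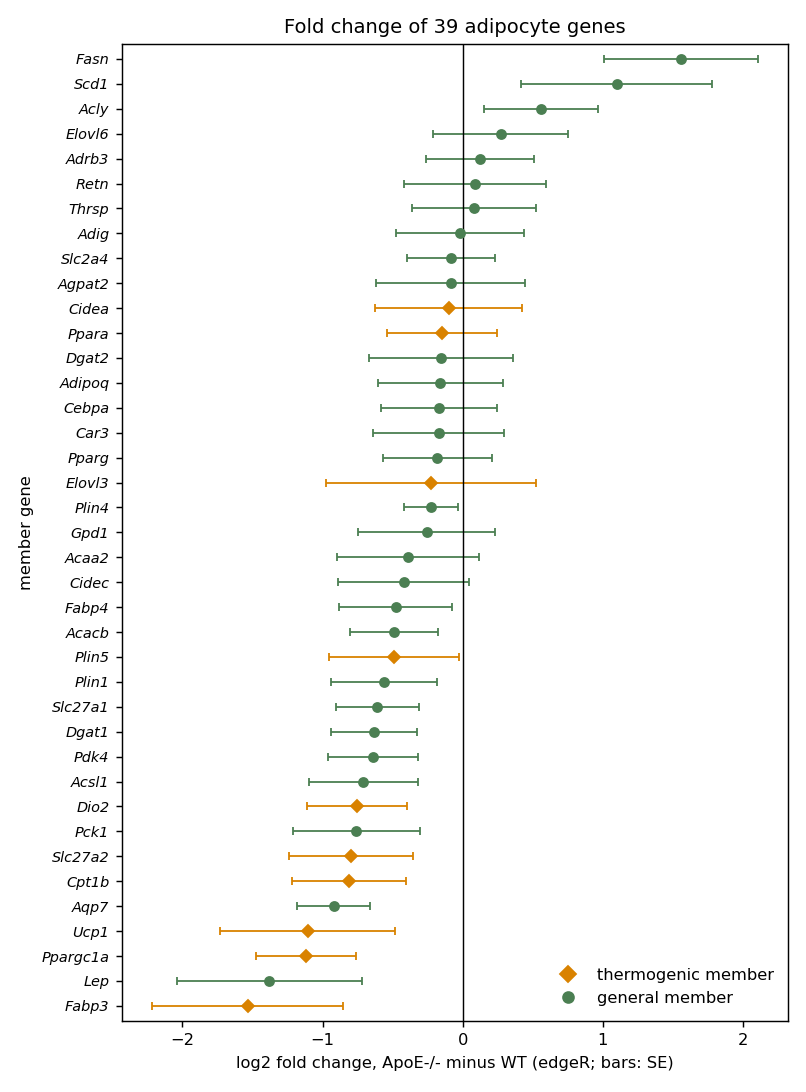
Log2 fold change (ApoE-/- minus WT, edgeR, with SE as bars) of each of the 39 adipocyte genes, ordered from highest to lowest, with thermogenic members as diamonds and general members as circles. All 10 thermogenic members lie left of 0, the fatty acid synthesis genes Fasn and Scd1 lie farthest right, and no gene passed the adjusted threshold.

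The members were far more variable between mice of one genotype than other genes were. The median SD of log2 CPM over the 39 members was 0.81 in ApoE-/- and 0.54 in WT, against 0.34 and 0.18 over all genes tested. The median SE of a member's log2 fold change was 0.44, against 0.20 for all genes. ApoE-/- replicate 3 was the lowest of the 8 libraries for 32 of 39 members (82.1%), compared with 20.02% of all genes tested. WT replicate 4 was the highest for 21 members (53.8%), compared with 7.03% of all genes, and ApoE-/- replicate 4 was the highest for 11 (28.2%), compared with 21.5% of all genes. Between these 2 ApoE-/- mice, replicate 4 held 4.22 times the Adipoq, 4.30 times the Ucp1 and 5.29 times the Cidea of replicate 3, but 1.16 times the Plin4 and 1.23 times the Dio2.

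**Figure D2:**
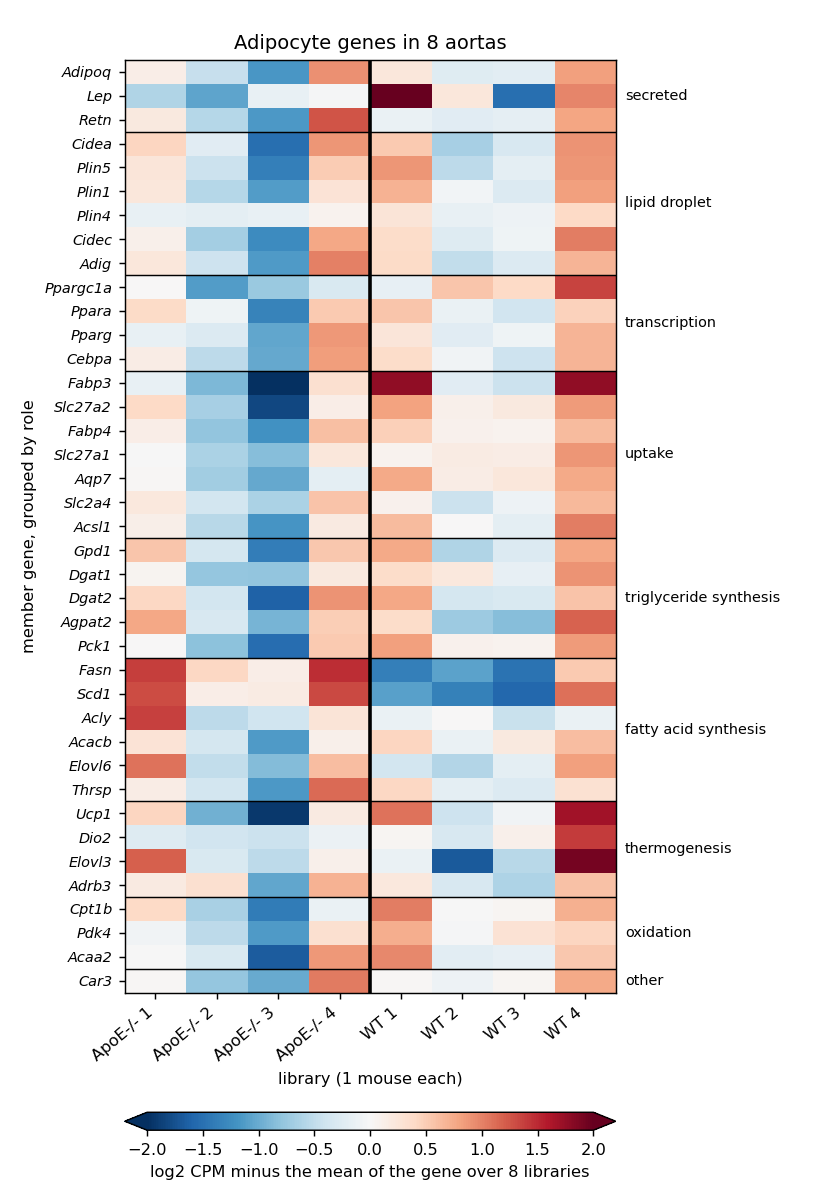
Log2 CPM of each member minus its mean over the 8 libraries, with genes in rows grouped by role and 1 mouse per column. Most rows are blue in ApoE-/- replicate 3 and red in ApoE-/- replicate 4 and WT replicate 4, while Fasn and Scd1 are blue in WT replicates 1 to 3 alone.

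The secreted products did not pass the test. Adipoq averaged 481 ± 288 CPM in ApoE-/- and 537 ± 197 CPM in WT (n = 4 each; log2 fold change -0.16, SE 0.45, edgeR adjusted p = 0.943). Retn, which encodes resistin, averaged 86.9 ± 64.6 CPM in ApoE-/- and 81.7 ± 31.5 CPM in WT. Lep, which encodes leptin and is characteristic of white fat, was scarce at 1.99, 1.44, 2.70 and 2.95 CPM in ApoE-/- replicates 1 to 4 and 13.1, 3.51, 1.05 and 5.94 CPM in WT replicates 1 to 4, from 19 pairs upwards. Its WT values spanned those of all ApoE-/- mice (log2 fold change -1.38, SE 0.66, edgeR adjusted p = 0.503), and most of the difference lay in WT replicate 1.

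The 6 lipid droplet proteins were all lower by sign, with a median log2 fold change of -0.32. With 1 mouse left out, Cidea and Adig each changed sign in 4 fits and the others in none. Plin1, the perilipin that guards the droplet from lipases, measured 520.0, 302, 206 and 539.9 CPM in the ApoE-/- mice and 723, 431, 371 and 786 CPM in the WT mice (log2 fold change -0.56, SE 0.38, edgeR adjusted p = 0.700). Cidec, which fuses droplets in white fat, averaged 586 ± 349 CPM in ApoE-/- and 784 ± 332 CPM in WT, and Cidea, its counterpart in brown fat, 308 ± 181 CPM in ApoE-/- and 330.4 ± 159 CPM in WT. The genotypes overlapped for each of them. Plin4 was the steadiest member, at 1284, 1240.3, 1286 and 1494 CPM in the ApoE-/- mice and 1709, 1286, 1331 and 1876 CPM in the WT mice, and its SE of 0.19 was the smallest of the 39. Plin5, which ties droplets to mitochondria and is also made by heart, measured 67.8 ± 33.4 against 95.3 ± 44.9 CPM on average, and Adig, a small adipocyte membrane protein, 62.5 ± 38.7 against 63.3 ± 23.8 CPM.

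Among the transcription factors, Ppargc1a was apart from the other 3. Ppargc1a encodes PGC-1α, the coactivator of mitochondrial biogenesis and of Ucp1 (chromosome 5, 51454250 to 51567726, minus strand), and measured 47.9, 21.9, 28.6 and 38.7 CPM in ApoE-/- replicates 1 to 4 and 42.6, 69.98, 63.2 and 122 CPM in WT replicates 1 to 4. All 4 ApoE-/- mice were below WT replicates 2 to 4, and only WT replicate 1 lay within the ApoE-/- range. It too fell short of the threshold (log2 fold change -1.12, SE 0.35, edgeR adjusted p = 0.237). Pparg, the master regulator of adipocytes, averaged 125 ± 70.4 CPM in ApoE-/- and 142 ± 41.2 CPM in WT. Cebpa averaged 177 ± 99.5 CPM in ApoE-/- and 199.5 ± 64.9 CPM in WT, and Ppara, the fatty acid sensing receptor of brown fat, heart and liver, 80.6 ± 36.9 CPM in ApoE-/- and 89.3 ± 27.3 CPM in WT. For these 3 the differences, with log2 fold changes from -0.18 to -0.15, were well inside the SDs.

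Since Pparg and Cebpa were measured as factors, the proximal promoters of the members were searched for their sequence elements. RefSeq start windows of build GRCm38.p6, from 250 bases before to 50 after the start, were found for 27 of the 39 members, 35 windows in all. The element bound by PPARγ with RXR was searched on both strands as 2 copies of AGGNCA in 1 direction with 1 base between them. It was in none of the 35 windows and in 0.381% of all 32851 windows. The C/EBP element was searched as TTNCNNAA, whose reverse complement was searched as well. It was in 13 of the 35 windows (37.1%) and in 40.7% of all windows, so members did not hold it more often than promoters at large. A match is a run of letters and not a bound site. To show where such letters lie beside the adipocyte marker and the 2 members with the smallest p, 80-base stretches upstream of the start of Adipoq, Aqp7 and Ppargc1a are printed, 5′ to 3′ on the strand of the gene, with the C/EBP match in capitals.
Adipoq, chr16:23146419-23146498, plus strand, match beginning 81 bases before the start: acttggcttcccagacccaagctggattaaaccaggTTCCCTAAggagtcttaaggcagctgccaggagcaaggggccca
Aqp7 (1 of its 2 start windows), chr4:41048307-41048386, minus strand, match beginning 237 bases before the start: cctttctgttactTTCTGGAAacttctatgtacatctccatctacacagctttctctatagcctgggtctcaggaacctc
Ppargc1a, chr5:51567772-51567851, minus strand, match beginning 90 bases before the start: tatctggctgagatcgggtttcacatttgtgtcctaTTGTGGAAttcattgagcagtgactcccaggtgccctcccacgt

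The 7 uptake genes were all lower by sign (median log2 fold change -0.71). With 1 mouse left out, Slc2a4 changed sign in 3 fits and the other uptake genes in none. Among the 7 was the only member whose genotypes did not overlap. Aqp7, the channel through which adipocytes take up and release glycerol (chromosome 4, 41033074 to 41048139, minus strand), measured 119, 71.9, 57.2 and 102 CPM in ApoE-/- replicates 1 to 4 and 197, 129.9, 137 and 198 CPM in WT replicates 1 to 4. The highest ApoE-/- mouse was below the lowest WT mouse, as was so for 3.30% of all genes tested. With log2 fold change -0.92, SE 0.26, edgeR adjusted p = 0.178, it did not pass.

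Fabp3, the fatty acid binding protein of brown fat, heart and muscle, had the lowest log2 fold change of the 39. It measured 10.4, 6.21, 2.57 and 14.5 CPM in the ApoE-/- mice and 39.5, 9.92, 8.59 and 39.5 CPM in the WT mice (log2 fold change -1.53, SE 0.68, edgeR adjusted p = 0.454). WT replicates 1 and 4 were high, whereas WT replicates 2 and 3 lay inside the ApoE-/- range. Fabp4, the abundant binding protein of all adipocytes, averaged 2251 ± 1233 CPM in ApoE-/- and 3137 ± 624 CPM in WT, and Acsl1, which activates fatty acids to acyl-CoA, 1384 ± 549 CPM in ApoE-/- and 2265 ± 883 CPM in WT. The transporters Slc27a1 and Slc27a2 averaged 446 ± 154 against 680.1 ± 199.7 CPM and 116 ± 64.7 against 202 ± 54.6 CPM (ApoE-/- first), with adjusted p of 0.517 and 0.595 by edgeR. Slc2a4, the insulin-responsive glucose transporter GLUT4, was nearly level at 97.0 ± 36.5 CPM in ApoE-/- and 103 ± 33.9 CPM in WT.

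The genes of triglyceride synthesis also had lower means in ApoE-/-, and none passed the test. Pck1, which makes glycerol phosphate backbones in fat, measured 2033, 1149, 706 and 2929 CPM in the ApoE-/- mice and 3597, 2145, 2123 and 3678 CPM in the WT mice (log2 fold change -0.76, SE 0.45, edgeR adjusted p = 0.634). Dgat1 and Dgat2, which add the last fatty acid, averaged 156 ± 55.5 against 241 ± 75.7 CPM and 490.4 ± 304 against 546 ± 215 CPM (ApoE-/- first). Gpd1 averaged 708 ± 370.5 against 846 ± 386 CPM and Agpat2 185 ± 90.4 against 197 ± 133 CPM. All 5 genes of this group were lower by sign, with adjusted p from 0.516 to 0.973 (edgeR), and all 5 overlapped between genotypes. With 1 mouse left out, Gpd1 changed sign in 1 fit, Dgat2 in 2 and Agpat2 in 3, and Pck1 and Dgat1 in none.

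The 6 genes of fatty acid synthesis held most of the members with higher means in ApoE-/-. Of these 6, 5 were higher by sign, with a median log2 fold change of 0.42, while of the other 33 members 2 were higher. Without ApoE-/- replicate 1, 3 of the 6 were higher and their median was 0.038. Fasn, the fatty acid synthase (chromosome 11, 120805846 to 120824547, minus strand), measured 4140.5, 2122, 1734 and 4399 CPM in ApoE-/- replicates 1 to 4 and 612, 753, 568 and 2278 CPM in WT replicates 1 to 4. WT replicates 1 to 3 were all below the lowest ApoE-/- mouse, and WT replicate 4 was within the ApoE-/- range (log2 fold change 1.56, SE 0.55, edgeR adjusted p = 0.298). Scd1, the desaturase that makes oleic acid (chromosome 19, 44394455 to 44407879, minus strand), measured 10499, 4632, 4744 and 10554 CPM in ApoE-/- replicates 1 to 4 and 1990.4, 1656, 1424 and 9137 CPM in WT replicates 1 to 4 and had the same arrangement (log2 fold change 1.10, SE 0.68, edgeR adjusted p = 0.655). Scd1 alone took 0.455 to 1.08% of gene counts in ApoE-/- and 0.140 to 0.904% in WT.

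Acly, which supplies acetyl-CoA, measured 567, 153, 167 and 261 CPM in the ApoE-/- mice and 200.2, 220.0, 160.1 and 199 CPM in the WT mice, and ApoE-/- replicate 1 alone was far above the rest. Without this mouse its log2 fold change went from 0.56 to -0.01, and that of Elovl6, a fatty acid elongase, from 0.27 to -0.13. Thrsp, an inducible lipogenic factor, averaged 187 ± 124 CPM in ApoE-/- and 177 ± 42.2 CPM in WT. Acacb, whose product makes the malonyl-CoA that restrains mitochondrial uptake of fatty acids, was the 1 gene of the group with a lower mean in ApoE-/-, at 669.6 ± 254 CPM in ApoE-/- and 941 ± 205 CPM in WT. For Acly and Elovl6 the direction thus depended on ApoE-/- replicate 1, whereas for Fasn and Scd1 it did not depend on any single mouse.

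**Figure D3:**
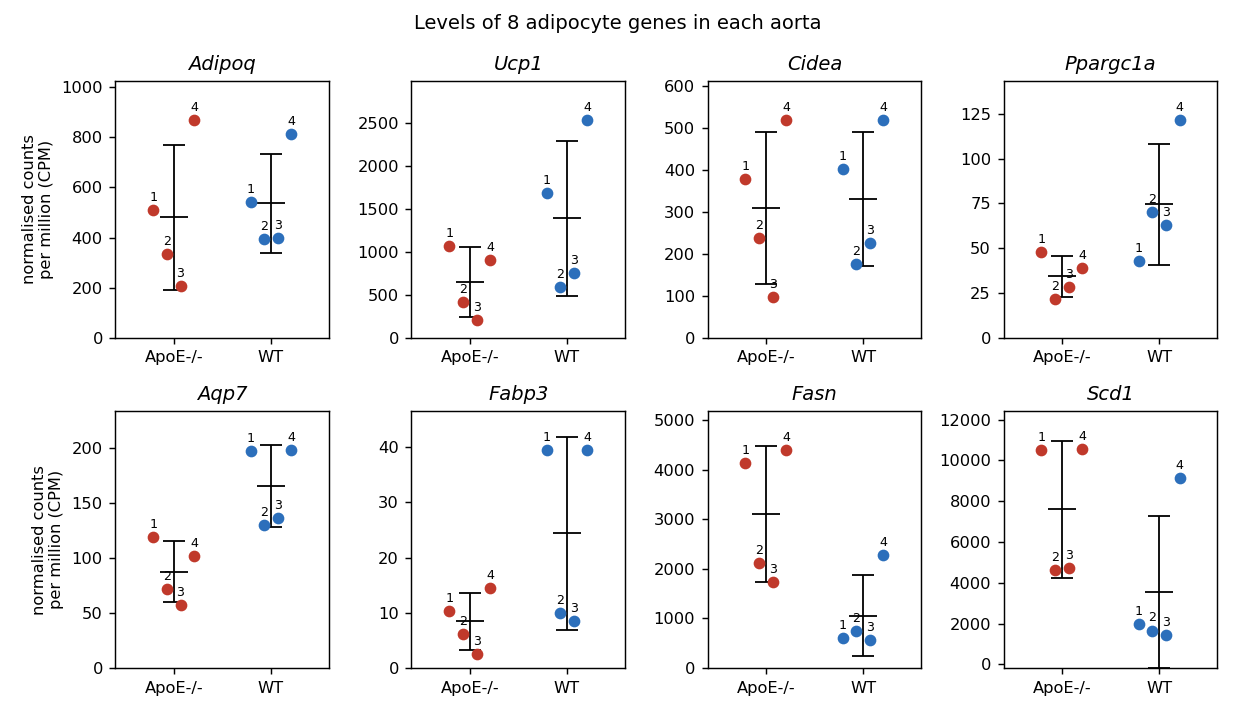
CPM of 8 members in each mouse (points, numbered by replicate) with the mean and SD of each genotype (n = 4, black), on linear axes of different scale. Aqp7 is the only one without overlap, and for Fasn and Scd1 only WT replicate 4 reaches the ApoE-/- values.

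The heat-producing genes had lower means in ApoE-/- for 3 of 4. Ucp1 averaged 647 ± 405 CPM in ApoE-/- and 1393 ± 902 CPM in WT (n = 4 each), with a log2 fold change of -1.11 and an SE of 0.63 (edgeR adjusted p = 0.605). The 2 highest ApoE-/- mice exceeded the 2 lowest WT mice. Dio2, the deiodinase that activates thyroid hormone in brown fat, measured 84.1, 76.9, 74.9 and 92.5 CPM in the ApoE-/- mice and 103, 80.2, 107 and 264 CPM in the WT mice, so that WT replicate 4 held most of the difference (log2 fold change -0.75, SE 0.36, edgeR adjusted p = 0.497). Elovl3, an elongase induced by cold, averaged 37.5 ± 22.5 CPM in ApoE-/- and 43.8 ± 49.1 CPM in WT. Adrb3, the β3-adrenergic receptor through which noradrenaline activates fat, had a slightly higher mean in ApoE-/-, at 117 ± 49.4 CPM in ApoE-/- and 107 ± 39.5 CPM in WT.

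Oxidation genes had adjusted p of 0.532 or more by edgeR. Cpt1b, the muscle-type carnitine palmitoyltransferase that admits fatty acids to mitochondria, measured 8.08, 3.89, 2.31 and 5.60 CPM in the ApoE-/- mice and 12.5, 6.09, 6.32 and 10.1 CPM in the WT mice and had a log2 fold change of -0.81 (SE 0.41). It shares its strand with an overlapping gene model, Gm44502, so its count is uncertain. Fabp3, Elovl3, Plin4 and Agpat2 overlap genes on the opposite strand, and the libraries were stranded. Pdk4, which diverts pyruvate from oxidation in fasting, averaged 735 ± 297 CPM in ApoE-/- and 1143 ± 249.5 CPM in WT, and Acaa2, a thiolase of β-oxidation, 365 ± 232 CPM in ApoE-/- and 478 ± 193 CPM in WT. Car3, an abundant carbonic anhydrase of adipocytes, averaged 1841 ± 1265 CPM in ApoE-/- and 2072 ± 626 CPM in WT. The mice had been fasted before death, and diet and fasting were the same in both genotypes.

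The second question was whether thermogenic and general members differed from each other. All 10 thermogenic members were lower by sign in ApoE-/-, with a median log2 fold change of -0.78, and 22 of 29 general members were, with a median of -0.18. Signs in both classes depended on single mice. With 1 mouse left out 17 members changed sign in at least 1 fit, of which Cidea, Ppara and Elovl3 were thermogenic and the rest general. Cidea did so in 4 fits, Ppara in 2 and Elovl3 in 1, and by limma-voom Elovl3 was higher (0.23). Adrb3, in the general class, was higher by sign (0.13). In each mouse, the mean log2 CPM of the thermogenic members minus that of the general members was -2.32, -2.48, -2.72 and -2.75 in ApoE-/- replicates 1 to 4 and -2.04, -2.44, -2.17 and -1.87 in WT replicates 1 to 4. WT replicate 2 lay among the ApoE-/- values, and the other 3 WT mice were above all of them. The genotype means differed by -0.44, with SDs of 0.20 and 0.24. Without ApoE-/- replicate 1 this difference was -0.52, and the median log2 fold changes of the classes were -0.94 and -0.28.

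The size of this difference depended on which genes made up each class. It was -0.24 when the 6 fatty acid synthesis genes were taken out of the general class, -0.29 when 5 members that heart expresses too (Ppara, Cpt1b, Fabp3, Plin5 and Ppargc1a) were taken out of the thermogenic class, and -0.0897 when medians replaced means. No test is attached to these scores, since they are summaries of genes chosen with earlier results in view.

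The ratio of Ucp1 to Adipoq sets 2 adipocyte transcripts against each other within a library and needs no scaling between libraries. Both genes were chosen with earlier results in view as well, so its test is not independent evidence. Ucp1 counts per Adipoq count were 2.10, 1.22, 1.01 and 1.03 in ApoE-/- replicates 1 to 4 and 3.11, 1.51, 1.89 and 3.12 in WT replicates 1 to 4. ApoE-/- replicate 1 was higher than WT replicates 2 and 3, and ApoE-/- replicates 2 to 4 were below every WT mouse. On the log2 scale the genotypes differed by -0.84 (two-sided exact permutation test, p = 0.0857, 70 assignments, n = 4 each, smallest possible p 0.0286). Without ApoE-/- replicate 1 the difference was -1.08 (exact permutation p = 0.0571, 35 assignments), and the genotypes did not overlap. With Plin1 in place of Adipoq the difference was -0.54 (exact permutation p = 0.171). With the sum of the general members, a sum to which Scd1 and Fasn contribute heavily, it was -1.15, for which no p is given, since that sum is a score over members.

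**Figure D4:**
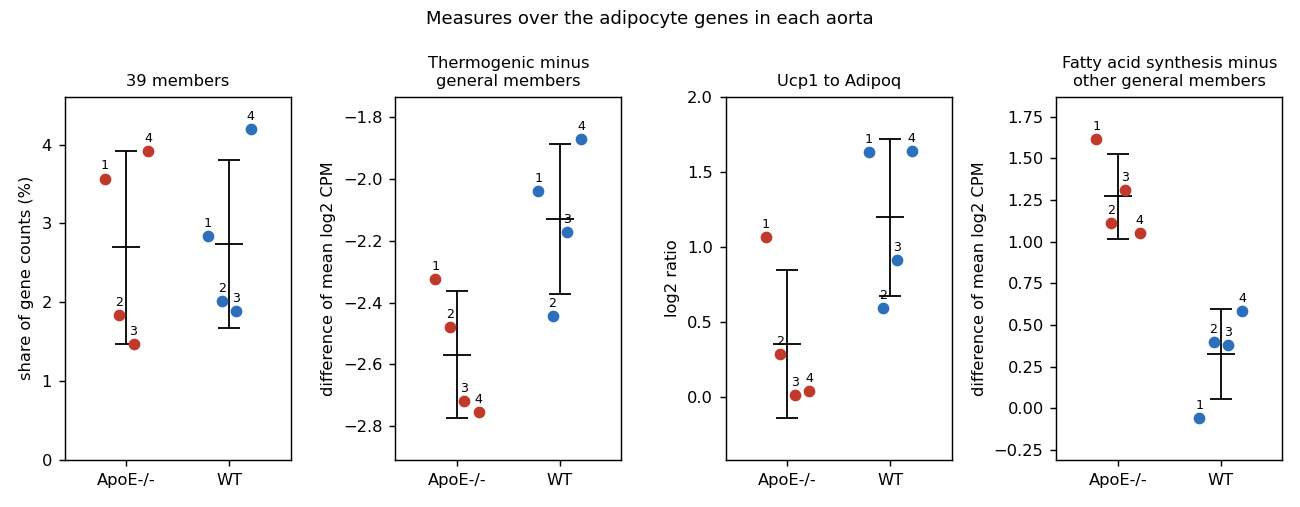
Values of 4 measures in each mouse (points, numbered by replicate) with mean and SD (n = 4, black): the share of gene counts taken by the 39 members, the thermogenic minus general difference of mean log2 CPM, the log2 ratio of Ucp1 to Adipoq, and the fatty acid synthesis minus other general members difference. The genotypes overlap in the first 3 measures and not in the last.

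Each of the other 38 members was likewise set against Adipoq in its own library, which lowered the spread. The median SD of the log2 ratio over these members was 0.35 in ApoE-/- and 0.30 in WT, where that of log2 CPM had been 0.80 and 0.54. Over all genes tested the SD of the log2 ratio to Adipoq was 0.94 and 0.53. With this scale 4 of 38 members were lower in ApoE-/- without overlap (0.332% of all other genes were), and 2 were higher (2.41% of all other genes were). Members and other genes are not on equal terms, since members varied with Adipoq from mouse to mouse.

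The 4 members lower per Adipoq were Pck1, Cidec, Acsl1 and Fabp3. Pck1 per Adipoq was 3.99, 3.43, 3.41 and 3.36 in ApoE-/- replicates 1 to 4 and 6.65, 5.45, 5.32 and 4.51 in WT replicates 1 to 4. Cidec per Adipoq was 1.30, 1.14, 1.24 and 1.20 in ApoE-/- and 1.46, 1.31, 1.45 and 1.53 in WT, a log2 difference of -0.24. Acsl1 differed by -0.43 and Fabp3 by -1.16 on the log2 scale. The highest ApoE-/- and the lowest WT mouse were at 1.30 and 1.31 for Cidec, at 3.53 and 3.62 for Acsl1, and at 0.0204 and 0.0215 for Fabp3. For these 3 genes the gap was smaller than the SD in ApoE-/-, which was 0.0674, 0.670 and 0.00340.

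The 2 members higher per Adipoq were Fasn and Scd1. Fasn per Adipoq was 8.12, 6.34, 8.39 and 5.05 in ApoE-/- replicates 1 to 4 and 1.13, 1.91, 1.42 and 2.80 in WT replicates 1 to 4, a log2 difference of 2.00. Scd1 per Adipoq was 20.6, 13.8, 22.9 and 12.1 in ApoE-/- and 3.68, 4.21, 3.57 and 11.2 in WT, a log2 difference of 1.75. WT replicate 4 was the WT mouse nearest to the ApoE-/- values for both. The mean log2 CPM of the 6 fatty acid synthesis genes minus that of the other 23 general members was 1.62, 1.11, 1.31 and 1.05 in ApoE-/- replicates 1 to 4 and -0.06, 0.40, 0.38 and 0.58 in WT replicates 1 to 4. This contrast was drawn after the values had been seen and is a description.

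Scaling the libraries to the 23 general members outside fatty acid synthesis, in place of all genes, gave the changes relative to these genes. It moved the median log2 fold change of all genes from 0.05 to 0.55. None of the 39 members passed edgeR's adjusted threshold on this scale, where 1.16% of all genes did. At an unadjusted p under 0.05 there were 3, Fasn, Scd1 and Fabp3, against 7.95% of all genes. The log2 fold change of Fasn was 2.03 (SE 0.61, edgeR adjusted p = 0.131), that of Scd1 1.69 (SE 0.67, adjusted p = 0.422 by edgeR), and that of Ucp1 -0.69 (SE 0.55, adjusted p = 0.532 by edgeR). The 23 reference genes are members themselves, so this scale centres them by construction.

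DESeq2, the tool that the study's methods name, called 2 of the 39 members, against 4.29% of all genes tested. They were Aqp7 (adjusted p = 0.0189) and Ppargc1a (adjusted p = 0.0435), both lower in ApoE-/-, as were 1.45% of all genes. Fasn had a DESeq2 adjusted p of 0.0534, and of 0.314 without ApoE-/- replicate 1. Without ApoE-/- replicate 1, DESeq2 called 3 members, all lower, against 9.18% of all genes in either direction and 4.00% as lower. These were Aqp7 (adjusted p = 6.61e-04), Ppargc1a (adjusted p = 0.00452) and Cpt1b (adjusted p = 0.0307), while edgeR called none of the 39 on the same 7 libraries, where it called 3.91% of all genes. With all 8 libraries, Aqp7 and Ppargc1a were thus the members on which the tools differed.

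Beyond the 39, another 68 genes of fat cells were read in 5 lists, and 66 of them passed the low-count filter. By edgeR 1 of the 66 passed the threshold, with 0.464% of all genes as the background, and 47 were lower by sign. On the 7 libraries without ApoE-/- replicate 1 edgeR called 4 of the 66, all lower, where it called 3.91% of all genes. These were Npr3, Nrg4, Gpihbp1 and the proteolipid gene Nnat, named after its values were seen (-1.92 on the log2 scale, edgeR adjusted p = 0.0256). The left-out mouse was the highest library for Nnat, at 55.8 CPM. With all 8 mice Nnat had a log2 fold change of -0.91 (edgeR adjusted p = 0.708). Npr3, the clearance receptor for natriuretic peptides, fell in ApoE-/- from 99.8, 88.1, 63.7 and 89.8 CPM in WT replicates 1 to 4 to 33.1, 40.1, 45.6 and 39.8 CPM in ApoE-/- replicates 1 to 4 (log2 fold change -1.11, SE 0.16, edgeR adjusted p = 0.0396). With 1 mouse left out, edgeR called it in 1 of 8 fits, that without ApoE-/- replicate 1 (edgeR adjusted p = 0.0159), and without each of the other mice the edgeR adjusted p was 0.0647 to 0.149, at log2 fold changes of -1.22 to -1.02. By limma-voom the adjusted p was 0.0543, by DESeq2 8.60e-07, and scaled to general adipocyte genes it did not pass (log2 fold change -0.50, edgeR adjusted p = 0.532). Nor did it pass with the replicate number as a block (log2 fold change -1.10, edgeR adjusted p = 0.157). Npr3 is not peculiar to fat, and vessel wall cells express it too. The list of 13 identity genes otherwise had Slc7a10 at -0.61 and Pnpla3 at 1.01 on the log2 scale, both short of the threshold.

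Brown fat genes outside the members were lower by sign for 18 of 20 tested, with a median log2 fold change of -0.25. Nrg4, a growth factor secreted by brown fat, measured 104, 53.0, 43.9 and 65.3 CPM in the ApoE-/- mice and 141, 132, 93.1 and 189.9 CPM in the WT mice (log2 fold change -1.06, SE 0.31, edgeR adjusted p = 0.190). Its log2 fold change without ApoE-/- replicate 1 was -1.36 (edgeR adjusted p = 0.0274). Gk, the glycerol kinase of brown fat, measured 131, 93.6, 85.4 and 116 CPM in the ApoE-/- mice and 184, 154, 172 and 452 CPM in the WT mice without overlap (log2 fold change -1.18, SE 0.36, edgeR adjusted p = 0.219). DESeq2 called Nrg4 and Gk as lower, with adjusted p of 0.0208 and 0.0312. Adrb1, a β1-adrenergic receptor also present in heart, had a log2 fold change of -1.14 (SE 0.40).

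In the list of 13 genes that release and take up fatty acids 10 were lower by sign (median log2 fold change -0.37). Gpihbp1, which anchors lipoprotein lipase on capillary endothelium, measured 71.9, 48.8, 41.4 and 77.7 CPM in the ApoE-/- mice and 129.8, 102, 108 and 144 CPM in the WT mice without overlap (log2 fold change -1.01, SE 0.22, edgeR adjusted p = 0.0944, DESeq2 adjusted p = 0.00127). G0s2, an inhibitor of the lipase ATGL, was also without overlap at 67.7, 50.7, 19.3 and 72.2 CPM in the ApoE-/- mice and 109.6, 77.7, 94.2 and 114 CPM in the WT mice. Cd36, a fatty acid receptor of fat, endothelium and macrophages, had a log2 fold change of -0.69. Gpihbp1 had a log2 fold change of -1.11 without ApoE-/- replicate 1 (edgeR adjusted p = 0.0439). It is an endothelial gene, and 3 of 8 endothelial markers were lower in ApoE-/- without overlap, where 3.30% of all genes were. The part of endothelium in its level was not tested.

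Lipogenic genes outside the members were mixed, with 6 of 10 higher by sign. Srebf1, the factor that drives fatty acid synthesis, measured 234, 147, 151 and 184 CPM in the ApoE-/- mice and 164, 139, 108 and 141 CPM in the WT mice (log2 fold change 0.38, SE 0.19, edgeR adjusted p = 0.537). Me1, malic enzyme, had a log2 fold change of 0.31 and Slc25a1, the citrate carrier, 0.63, the latter with 230.0 CPM in ApoE-/- replicate 1. Without this mouse the log2 fold changes of Srebf1, Me1 and Slc25a1 were 0.22, 0.15 and 0.14. Of the 10 adipogenic factors 5 were lower and 5 higher by sign (median -0.02), among them Stat5a (0.38), Ebf1 (-0.24) and Cebpb (-0.41). None of the 20 genes in these 2 lists passed the test by edgeR or DESeq2, and 1 of them, Stat5a, had an unadjusted p under 0.05 by edgeR.

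Markers of other cell types were read in the same libraries. By edgeR 2 of 9 macrophage markers passed the test, both higher in ApoE-/-, and no cardiac, skeletal muscle, smooth muscle, endothelial, fibroblast or mesothelial marker did. With ApoE-/- replicate 1 left out edgeR called 6 of 9 macrophage and 4 of 7 fibroblast markers as higher and 7 of 10 cardiac and 2 of 8 endothelial markers as lower, where it called 3.91% of all genes. DESeq2 called 6 of 10 cardiac, 3 of 8 endothelial and 1 of 9 skeletal muscle markers as lower. It called 6 of 9 macrophage and 2 of 7 fibroblast markers as higher. Over all genes it called 4.29% in either direction and 1.45% as lower. Of 10 cardiac markers 9 were tested by edgeR, and 8 of the 9 were lower in ApoE-/- without overlap, where 3.30% of all genes were. Their summed level was 161 to 345 CPM in ApoE-/- and 421 to 734 CPM in WT, and Myh6, the atrial and adult ventricular myosin, measured 51.3, 1.62, 1.18 and 2.52 CPM in the ApoE-/- mice and 158, 88.6, 105 and 114 CPM in the WT mice. Ryr2, the most abundant of them, overlapped between genotypes (log2 fold change -0.02), and without it the sum was 24.1 to 133 CPM in ApoE-/- and 229 to 526 CPM in WT. Myl7, a light chain of atrial muscle, was at 5.84, 0, 0 and 0.564 CPM in the ApoE-/- mice and 48.9, 11.8, 22.0 and 25.1 CPM in the WT mice. These values stand beside Fabp3, Cpt1b, Ppara, Plin5 and Ppargc1a, which heart muscle expresses as well, and the part of heart tissue in their levels was not tested.

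All 9 macrophage markers were higher in ApoE-/- without overlap, where 5.41% of all genes were, and summed to 370.4 to 1672 CPM against 215 to 317 CPM. Their most abundant gene was Lyz2, at 152, 377, 511 and 998 CPM in the ApoE-/- mice and 122, 94.2, 73.3 and 104 CPM in the WT mice. Macrophages loaded with lipid also express genes of lipid handling such as Fabp4 and Pparg, whose means were not higher in ApoE-/-, and the part of macrophages in the members was not tested. Fibroblast markers summed to 2722 to 7759 and 2121 to 2719.7 CPM and endothelial markers to 1596 to 2495 and 2260.3 to 2822 CPM, with ApoE-/- first. The most abundant in each were Col3a1 and Vwf.

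Mesothelial markers, which lie on the surface of fat depots, summed to 9.62, 4.24, 2.57 and 5.56 CPM in ApoE-/- replicates 1 to 4 and 13.2, 5.94, 3.93 and 37.0 CPM in WT replicates 1 to 4, with Lrrn4 the most abundant. WT replicate 4, the library with the highest level of 21 members, held the most, and ApoE-/- replicate 3, the lowest for 32 members, the least. Skeletal muscle markers were low throughout, at 13.8 to 34.6 and 18.5 to 32.7 CPM. Acta1 was the most abundant of them over all 8 libraries and Ckm, the creatine kinase of muscle, in WT, and Ckm was lower in ApoE-/- without overlap (log2 fold change -1.54, SE 0.41, edgeR adjusted p = 0.154, DESeq2 adjusted p = 0.00758). Smooth muscle markers, led by Myh11, summed to 4974 to 20825 and 11102 to 20966 CPM. Mitochondrially encoded genes took 2.84 to 5.16% of gene counts in ApoE-/- and 5.52 to 6.92% in WT. The part of these tissues in the members' levels was not tested.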

How the data were processed

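Whole aortas of 4 ApoE-/- and 4 WT mice gave 1 stranded total RNA library each, depleted of ribosomal RNA and read in pairs. The values deposited by the authors are raw counts, 1 per gene and library, with no normalization. The submitters' processing notes name TopHat2, HTSeq, GRCm38 and mm10. Their versions, and the annotation, are not given in the sources used here. Coordinates and exon lengths came from GENCODE M21 (GRCm38), matched by Ensembl ID without its version (21817 of 21859 genes, 42 not found). The 5 rows that name no gene were left out.

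Counts were analysed in R 4.3.3. The filter filterByExpr (edgeR 4.0.16) left 15077 genes, and genotypes were compared by TMM scaling and the quasi-likelihood F test (robust), with genotype as the only factor. Each SE was obtained from F and the log2 fold change. Adjusted p-values follow Benjamini-Hochberg over all genes tested, with a threshold of 0.05. Mean log2 CPM and ratios used a prior count of 2. The ratio of Ucp1 to Adipoq was compared by a two-sided exact permutation test. Tables were made in Python 3.11.15.

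Alternatives were DESeq2 1.42.0, limma-voom (limma 3.58.1), other scalings and filters, non-robust estimation, a block for replicate number, other gene classes, and leaving out each mouse. Those chosen after seeing the values were the general class without fatty acid synthesis, scaling to general adipocyte genes, DESeq2 without ApoE-/- replicate 1, and the count of members lower by sign. On counts simulated from these libraries edgeR called 60 to 64% of genes changed by 1.5 and 92 to 93% of those changed by 3 on the log2 scale. These rates are over genes at large and do not carry over to the members, which varied more between mice.

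The members and lists were chosen with earlier results of these data known. Named genes were all members, Apoe, the 3 genes of smallest p in each further adipocyte list and the most abundant gene of each marker list, of which 1 list is not reported here. Exceptions, chosen after their values were seen, were Myh6, Myl7, Ckm and Nnat. Promoter windows came from RefSeq (GRCm38.p6). Total gene counts were 18375898 to 23940156 per library, and errors are over 4 mice a group.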

Additional observations from a re-analysis of the deposited data

Results flagged for a closer look

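In 6 of 88 groups of 4 values examined, 1 mouse lay farther from the others than Dixon's 95% critical ratio for 4 samples allows, where chance alone flags about 1 group in 20, or 4.4 of 88. All 6 were WT replicate 4 at the high end, and the groups are not independent, since they share that mouse. Dio2 was at 264 CPM against 80.2 to 107 CPM in the other WT mice (ratio 0.852). Retn was at 129 against 63.9 to 68.3 CPM (ratio 0.932), and Slc27a1 at 979 against 559.9 to 592 CPM (ratio 0.924). Fasn was at 2278 against 568 to 753 CPM (ratio 0.892), and Scd1 at 9137 against 1424 to 1990.4 CPM (ratio 0.927). Car3 was at 3004 against 1652 to 1829 CPM (ratio 0.869). Without WT replicate 4 the log2 fold change of Fasn was 2.27, that of Scd1 2.17 and that of Dio2 -0.24, with adjusted p of 0.177, 0.202 and 0.8292 (edgeR). The same library had the highest level of 21 members and the highest sum of mesothelial markers, 37.0 CPM, and the part of either in these values was not tested.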

How the results depend on the processing

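The count of members called, 0 by edgeR, was 2 by DESeq2 and 3 by DESeq2 without ApoE-/- replicate 1, and 0 under the other 17 settings, which include limma-voom and each mouse left out. The count lower by sign, 32, was 21 to 35 with 1 mouse left out (21 without ApoE-/- replicate 3), 19 with scaling to general adipocyte genes, which centres 23 of the members by construction, and 32 to 34 otherwise. The thermogenic minus general difference of -0.44 was -0.35 to -0.54 with 1 mouse left out and -0.0897 with medians over genes. The log2 Ucp1 to Adipoq difference of -0.84 was -0.69 to -1.08 with 1 mouse left out, and with the summed general members as reference -1.15.

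No member that reversed had passed the test. By limma-voom the log2 fold change was 0.23 for Elovl3, -0.13 for Retn, 0.018 for Agpat2 and -0.12 for Thrsp. Scaled to general adipocyte genes it was 0.25 for Cidea, 0.21 for Ppara, 0.43 for Elovl3, 0.16 for Adipoq, 0.33 for Plin4, 0.30 for Adig, 0.15 for Pparg, 0.16 for Cebpa, 0.33 for Slc2a4, 0.12 for Gpd1, 0.13 for Dgat2, 0.42 for Agpat2 and 0.086 for Car3. This scaling moved the median of all genes from 0.05 to 0.55, and all but Cidea, Ppara and Elovl3 belong to the genes it centres, so these signs follow from the scale. DESeq2 without ApoE-/- replicate 1 gave -0.014 for Acly and -0.13 for Elovl6. With 1 mouse left out, 17 members changed sign in at least 1 case, with ranges of -0.47 to 0.20 for Cidea, -0.36 to 0.12 for Ppara, -0.73 to 0.94 for Elovl3, -0.62 to 0.11 for Adipoq, -0.53 to 0.40 for Retn, -0.49 to 0.24 for Adig, -0.63 to 0.047 for Pparg, -0.59 to 0.061 for Cebpa, -0.33 to 0.15 for Slc2a4, -0.49 to 0.016 for Gpd1, -0.56 to 0.15 for Dgat2, -0.37 to 0.44 for Agpat2, -0.0094 to 0.77 for Acly, -0.13 to 0.67 for Elovl6, -0.45 to 0.35 for Thrsp, -0.11 to 0.38 for Adrb3 and -0.74 to 0.063 for Car3.

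Both genotypes carry replicates 1 to 4, from 8 separate mice. Same-numbered libraries had deviation correlations of 0.0593, -0.448, 0.316 and 0.162. Only for replicate 3 was the same-numbered WT library the one of highest correlation. Whether libraries of 1 number were handled together cannot be told from these values. With the replicate number as a block, edgeR called 0 members and 2 genes in all in place of 70, and the log2 fold change was 0.27 for Elovl3, -0.12 for Retn, 0.013 for Agpat2 and -0.12 for Thrsp. The Ucp1 to Adipoq difference in the replicate block was -0.84 (exact permutation p = 0.125, the smallest that 16 assignments allow). Over all genes edgeR called 70, DESeq2 721, limma-voom 29, and edgeR 593 without ApoE-/- replicate 1 and 0 to 17 without any other mouse. The median SE of the members was 0.44 against 0.20 over all genes, and their lowest count was 19 pairs.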
